A study of Mus musculus with 12 samples.

Results

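Described here are 10 genes of the integrated stress response and of serine synthesis in mouse oligodendrocyte progenitor cells (OPCs), chosen by symbol from the 20540 genes of the deposited table. They are Atf4, Atf5, Ddit3, Ddit4, Asns, Trib3, Chac1, Sesn2, Psat1 and Phgdh, and each had reads in all 12 libraries. The cells, taken at postnatal day 6 to 7 from C57BL/6 mouse brain, were kept proliferating in SATO medium with an additive labelled PDGFRA, and were transfected with a biotin-tagged miRNA mimic. Such a mimic is a made duplex that works in cells as the mature miRNA would, and its biotin lets the RNA it holds be pulled down. The 4 groups of 3 libraries were whole-cell RNA under control mimic, whole-cell RNA under miR-27a mimic, pulldown RNA under control mimic and pulldown RNA under miR-27a mimic. All 4 groups therefore came from transfected cells, the sources used here do not give the control mimic's sequence, and the labels do not say whether replicates were separate cultures. The spread that the p-values rest on is that of these libraries and may be technical.

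The integrated stress response starts when a kinase that senses amino acid shortage, unfolded protein, heme deficiency or double-stranded RNA phosphorylates the translation factor eIF2. General translation then slows, while the mRNA of the transcription factor ATF4 is translated better because of short reading frames upstream of its coding sequence. ATF4 and partners such as CHOP bind C/EBP-ATF response elements and raise genes for amino acid uptake, asparagine and serine synthesis and feedback on the response itself. Much of ATF4's regulation is at the level of protein and is not seen in RNA counts.

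The mature miR-27a-3p sequence is shown because its seed (bases 2 to 8, in capitals) sets which 3′ UTR sites can pair with it. It lies on chromosome 8 at 84208727 to 84208747, plus strand (RefSeq, GRCm38.p6).
miR-27a-3p: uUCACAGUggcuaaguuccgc

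Sites complementary to the seed were the 8mer ACTGTGAA and the 7mers ACTGTGA and CTGTGAA, the letters of the 8mer containing both 7mers. In the longest annotated 3′ UTR (GENCODE M21, GRCm38), 5 of the 10 genes held at least 1 such site, against 30.0% of the 15568 genes of the table with a 3′ UTR. The median 3′ UTR was 688 bases for the 10 genes and 1234 bases for those 15568. The sites are printed with 8 bases on either side and the match in capitals. They belong to Sesn2, Psat1, Ddit4, Phgdh and Trib3. How many of all genes with a site differed between mimics was not counted. In whole-cell RNA Ddit4 and Phgdh rose and Sesn2 and Psat1 fell, while Trib3 was too low for the test. In pulldown RNA Trib3 fell and the other genes with a site did not pass. Under other choices of processing, the call on Sesn2 was lost in 6 of 15 and that on Trib3 in 6 of 14. Whether the sites have a part in these differences was not tested.
Sesn2 (chr4:132492417-132492440, minus strand): agcaaacaACTGTGAAttctgatg
Psat1, first site (chr19:15905263-15905285, minus strand): accctcaaACTGTGAtcacgtgg
Psat1, second site (chr19:15905103-15905125, minus strand): ttcattgcCTGTGAAttattctg
Ddit4 (chr10:59949843-59949865, minus strand): aggattcaACTGTGAggagaggg
Phgdh (chr3:98313235-98313257, minus strand): cccgctcaACTGTGAcctatagg
Trib3 (chr2:152338007-152338029, minus strand): tctaggtgCTGTGAAcagcaaag

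The Sesn2 site is an 8mer, a kind found in 6.69% of the 15568 genes, and the others are 7mers. Atf4, Atf5, Ddit3, Asns and Chac1 held no site of these kinds in this UTR. A match is a description of letters and does not show that the site is used.

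Libraries held 15548418 to 24972188 assigned reads, and the 3 reads taken as the limit of detection were worth 0.116 to 0.2 CPM (reads scaled to the size of the library). The first principal component (65.3% of the variance) separated pulldown from whole-cell RNA, the second (14.4%) separated the mimics, and on the third (5.4%) replicate 2 of the miR-27a pulldown lay away from the other libraries. The Mir27a gene held 5 reads in all, and mature miRNA is not captured by these libraries, so the mimic itself could not be checked. Marker genes of OPCs and oligodendrocytes summed to 10615 to 10858 CPM in whole-cell control libraries, and none of the 12 was under 1 CPM. The 12 astrocyte markers, none of them under 1 CPM either, summed in whole-cell RNA to 9974 to 10031 CPM with control mimic and 8840 to 8896 CPM with miR-27a. In pulldown RNA they summed to 6514 to 6694 CPM under control mimic and 4889 to 5592 CPM under miR-27a. For bulk RNA, fewer cells of a type and less RNA per cell cannot be told apart. Microglial markers summed to 18.03 to 27.4 CPM over the 12 libraries, with Aif1 and C1qb under 1 CPM in every group. The 11 neuronal markers, with Rbfox3 and Slc17a7 under 1 CPM, went from 481 to 499.99 CPM under control mimic to 529 to 550 CPM under miR-27a in whole-cell RNA. In pulldown RNA they went from 349 to 372 CPM to 415 to 436 CPM. These sums do not show a shared rise. In each fraction 9 of the markers were tested, of which Tubb3 rose, Snap25 fell and 7 did not pass. The median log2 change was 0.01 in whole-cell and -0.11 in pulldown RNA. In whole-cell RNA Tubb3 changed by 0.61 ± 0.06 (adjusted p = 3.09e-08) and Snap25 by -0.40 ± 0.07 (adjusted p = 0.000141) in limma. The 11 markers of endothelial cells, mural cells and fibroblasts went from 141 to 154 CPM to 89.3 to 94.6 CPM in whole-cell RNA, where Acta2 (-1.51 ± 0.08, adjusted p = 3.05e-12) and Tagln (-1.32 ± 0.06, adjusted p = 5.97e-13) fell in limma. Of the 7 tested there 3 fell and 1 rose, Cspg4 (0.21 ± 0.07, adjusted p = 0.0392 in limma), with a median of 0.01. In pulldown RNA they summed to 178 to 181 CPM under control mimic and 166 to 188 CPM under miR-27a, and Pecam1 and Cldn5 were under 1 CPM in every group. Of the 9 tested in pulldown RNA 3 fell, among them Acta2 (-1.65 ± 0.16, adjusted p = 9.61e-06) and Tagln (-1.27 ± 0.15, adjusted p = 6.27e-05) in limma. Cspg4, also among the OPC markers, rose (0.73 ± 0.12, adjusted p = 0.000548 in limma). The part of these marker levels in the mimic comparisons below was not tested.

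Expressed per kilobase of exon, so that genes can be compared, the whole-cell control level was highest for Psat1 (158 CPM per kb), followed by Phgdh (72.5), Ddit4 (63.8), Atf4 (51.9) and Asns (20.8). Ddit3 (8.99 CPM per kb), Sesn2 (4.51), Atf5 (2.90), Chac1 (1.10) and Trib3 (0.456) were lower. Reads per library ran from 13 to 82 for Trib3 and 23 to 78 for Chac1, so these genes carried the widest counting error, against 9135 to 13159 reads for Psat1.

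**Figure D1:**
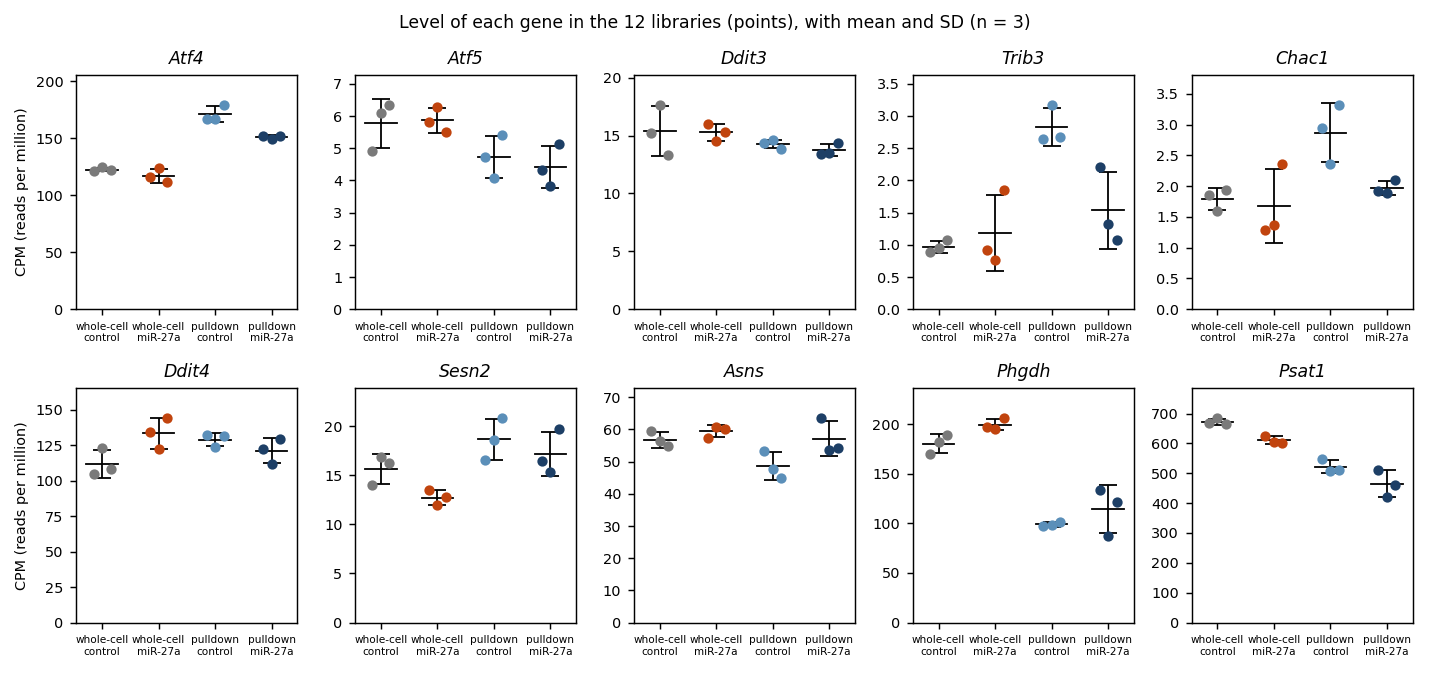
CPM (vertical axis, from 0, a separate scale for each gene) of the 10 genes in the 4 groups; points are libraries, the long line is the mean and the bar the SD (n = 3). Atf4 lies higher and Phgdh and Psat1 lie lower in pulldown than in whole-cell RNA, and Trib3 reaches 2.64 to 3.17 CPM in the 3 pulldown control libraries.

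In whole-cell RNA, the comparison of mimics asked whether the RNA of these stress genes differs when miR-27a is raised. Ddit4 and Phgdh rose and Psat1 and Sesn2 fell, each by less than 0.3 on the log2 scale. The transcription factors Atf4, Atf5 and Ddit3 and the amino acid gene Asns did not pass the test. Changes are log2 differences of CPM + 1, which understate the change of low genes, tested with limma and adjusted over all genes tested (threshold 0.05). Of the 9 genes tested here 4 passed, beside 24.9% of the 13393 genes tested, and Trib3 was under the filter of 1 CPM in 3 libraries. The median change of the 13393 genes was 0.01.

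In pulldown RNA, the same comparison asked whether these RNAs differ in abundance among the RNA recovered with each mimic. Trib3 fell, and it was the 1 gene of 10 that passed, beside 13.1% of the 13586 genes tested. Same-numbered pulldown libraries deviated together (r of 0.107 to 0.275), which was read from the data, as the labels give no pairing. Pulldown replicates 1 and 3 of opposite mimics also had positive r (0.049 and 0.062), so the pattern is not of number alone. With the replicate number as a block Asns passed as well (adjusted p = 0.0392 in limma). Without pulldown miR-27a replicate 2, the library that lay away from the others, Asns and Phgdh passed and Trib3 did not.

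Atf4, the central transcription factor of the response (chromosome 15, 80255184 to 80257541, plus strand, GRCm38), was at 121, 124 and 122 CPM in whole-cell RNA under control mimic. Under miR-27a it was at 116, 124 and 112 CPM. The groups overlapped, and the log2 change of -0.07 ± 0.04 (SE) did not pass (adjusted p = 0.283 in limma). In pulldown RNA Atf4 was at 167, 167 and 179 CPM under control mimic and at 152, 149.7 and 152 CPM under miR-27a. All 3 miR-27a libraries lay below the 3 control libraries, yet the log2 change of -0.17 ± 0.08 did not pass (adjusted p = 0.163 in limma). It passed when all 12 libraries shared 1 estimate of the spread (adjusted p = 0.0347 in limma).

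Ddit3 encodes CHOP, the stress factor that pairs with C/EBP proteins and promotes cell death under prolonged stress (chromosome 10, 127290774 to 127296288, plus strand). Its RNA ranged from 13.3 to 17.6 CPM over all 12 libraries, with group means of 15.4 ± 2.15 and 15.3 ± 0.721 CPM (SD, n = 3) in whole-cell RNA under control and miR-27a mimic. The whole-cell log2 change was -0.00 ± 0.09 (SE) and that in pulldown RNA -0.05 ± 0.11, with adjusted p-values of 0.987 and 0.822 in limma. Its annotated span overlaps Mars and Gm4189 on the opposite strand, and the sources used here do not say whether counting used the strand. Reads of the overlapping genes then cannot be told apart.

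Atf5, a transcription factor related to ATF4 that acts in the mitochondrial branch of stress signalling (chromosome 7, 44812256 to 44816658, minus strand), was low throughout, from 3.82 to 6.34 CPM. Whole-cell means were 5.78 ± 0.766 and 5.87 ± 0.382 CPM (SD, n = 3), and pulldown means were 4.74 ± 0.653 and 4.42 ± 0.653 CPM. Neither change passed, at 0.02 ± 0.12 (adjusted p = 0.908) in whole-cell and -0.08 ± 0.16 (adjusted p = 0.787) in pulldown RNA by limma. Its span overlaps Nup62 and Il4i1 on the opposite strand.

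Trib3 encodes a pseudokinase that is induced by ATF4 and CHOP and restrains them in turn (chromosome 2, 152337422 to 152344032, minus strand). In whole-cell RNA it was at 0.89, 0.95 and 1.07 CPM under control mimic and 0.92, 0.77 and 1.86 CPM under miR-27a, too low for the test. In pulldown RNA it was at 2.64, 3.17 and 2.68 CPM under control mimic and 2.21, 1.32 and 1.07 CPM under miR-27a. The pulldown groups did not overlap, and the log2 change was -0.62 ± 0.19 (SE, adjusted p = 0.0434 in limma). The call rests on few reads: over the alternatives tried the adjusted p ran from 0.00842 to 0.2. It was lost without filtering low genes (0.0916), and without pulldown control replicate 1 (0.0908), 2 (0.146) or 3 (0.0939) or pulldown miR-27a replicate 2 (0.0534) or 3 (0.2).

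Chac1, a glutathione-degrading enzyme downstream of ATF4 (chromosome 2, 119351229 to 119354381, plus strand), was at 1.85, 1.60 and 1.94 CPM in whole-cell RNA with control mimic and 1.29, 1.36 and 2.36 CPM under miR-27a. In pulldown RNA it was at 2.94, 2.35 and 3.32 CPM under control mimic and 1.92, 1.89 and 2.09 CPM under miR-27a. Values overlapped in whole-cell RNA and did not in pulldown RNA. The log2 changes of -0.08 ± 0.16 (adjusted p = 0.748) and -0.37 ± 0.17 (adjusted p = 0.166) did not pass in limma.

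Ddit4 encodes REDD1, an inhibitor of the growth kinase complex mTORC1 that is raised by stress and by glucocorticoids (chromosome 10, 59949669 to 59951834, minus strand). In whole-cell RNA it was at 104, 123 and 108 CPM under control mimic and 134, 122 and 144 CPM under miR-27a. The highest control library lay just above the lowest miR-27a library, so the groups overlapped at that point. The log2 change was 0.25 ± 0.06 (SE, adjusted p = 0.00194 in limma), and Ddit4 passed in all 15 alternatives (adjusted p 2.06e-05 to 0.0411). In pulldown RNA it was at 132, 123 and 131 CPM under control mimic and 122, 112 and 129.7 CPM under miR-27a. These groups overlapped, with a log2 change of -0.09 ± 0.08 (adjusted p = 0.538 in limma).

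Sesn2 encodes sestrin 2, a leucine-binding protein that restrains mTORC1 when amino acids are short (chromosome 4, 132492032 to 132510501, minus strand). In whole-cell RNA it was at 14.0, 16.9 and 16.2 CPM under control mimic and 13.5, 11.96 and 12.8 CPM under miR-27a. The groups did not overlap, and the log2 change was -0.28 ± 0.09 (SE, adjusted p = 0.0251 in limma). The call was lost without control replicate 2 (adjusted p = 0.0947) or 3 (0.0906), without miR-27a replicate 2 (0.0984) or 3 (0.0662), without filtering low genes (0.0721) and with all 12 libraries in 1 fit (0.123). The annotated span of Sesn2 overlaps Gm12981 on the same strand, so reads of the shared stretch cannot be told apart by strand. In pulldown RNA Sesn2 was at 16.6, 18.6 and 20.8 CPM under control mimic and 16.5, 15.3 and 19.7 CPM under miR-27a, overlapping groups with a log2 change of -0.12 ± 0.12 (adjusted p = 0.599 in limma).

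Asns encodes asparagine synthetase, a classic ATF4 target (chromosome 6, 7675169 to 7693254, minus strand). It was at 59.6, 56.3 and 54.7 CPM in whole-cell RNA with control mimic and 57.5, 60.9 and 60.3 CPM under miR-27a. The groups overlapped, and the change of 0.07 ± 0.05 did not pass (adjusted p = 0.372 in limma). In pulldown RNA it was at 53.2, 47.8 and 44.9 CPM under control mimic and 63.4, 53.7 and 54.4 CPM under miR-27a. The pulldown groups did not overlap, with a log2 change of 0.23 ± 0.10 (adjusted p = 0.15 in limma). Asns passed there with the replicate block (0.0392), with all 12 libraries in 1 fit (0.0424) and without pulldown miR-27a replicate 2 (0.0273).

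Phgdh and Psat1 encode the first and second enzymes of serine synthesis from 3-phosphoglycerate, phosphoglycerate dehydrogenase and phosphoserine aminotransferase, and their RNA moved in opposite directions in whole-cell RNA. Phgdh (chromosome 3, 98313170 to 98339990, minus strand) was at 169.9, 182 and 189 CPM under control mimic and 197, 195 and 206 CPM under miR-27a. All 3 miR-27a libraries lay above the control libraries, and the log2 change was 0.15 ± 0.04 (SE, adjusted p = 0.00973 in limma). Phgdh no longer passed when miR-27a replicate 3 was left out (adjusted p = 0.0751) or with all 12 libraries in 1 fit (0.444).

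Psat1 (chromosome 19, 15904678 to 15947337, minus strand) was at 668, 684 and 665 CPM in whole-cell RNA with control mimic and 625, 605 and 600.3 CPM under miR-27a. All 3 miR-27a libraries lay below the control libraries, and the log2 change was -0.14 ± 0.03 (SE, adjusted p = 0.0019 in limma). With all 12 libraries in 1 fit Psat1 did not pass (adjusted p = 0.209). Psph, which makes serine in the last step of the pathway and was singled out after its values were seen, changed by -0.10 ± 0.04 and did not pass (adjusted p = 0.104 in limma). The astrocyte markers, whose summed level was lower under miR-27a, moved with Psat1 and against Phgdh; 8 of the 12 fell and 1 rose in whole-cell RNA. Their part in these results was not tested.

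In pulldown RNA Phgdh was at 97.0, 98.5 and 101 CPM under control mimic and 134, 87.0 and 122 CPM under miR-27a. Replicate 2 of the miR-27a pulldown lay below every control library while the other 2 lay above, and the log2 change of 0.18 ± 0.12 did not pass (adjusted p = 0.379 in limma). Without that replicate, the library that stands apart from the rest, the change was 0.36 and passed (adjusted p = 0.000277 in limma). This was the 1 alternative of 15 in which Phgdh passed there. Over the 15 the change ran from 0.06 to 0.36, with adjusted p-values up to 0.779. Psat1 in pulldown RNA was at 547, 508 and 509 CPM under control mimic and 511, 421 and 461 CPM under miR-27a. These groups overlapped, and the change of -0.17 ± 0.09 did not pass (adjusted p = 0.235 in limma). Phgdh-ps1, by its name an annotated copy of Phgdh, could share reads with that gene. The processed pseudogene Gm3329 overlaps the span of Psat1 on the opposite strand, and which gene it copies was not examined.

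**Figure D2:**
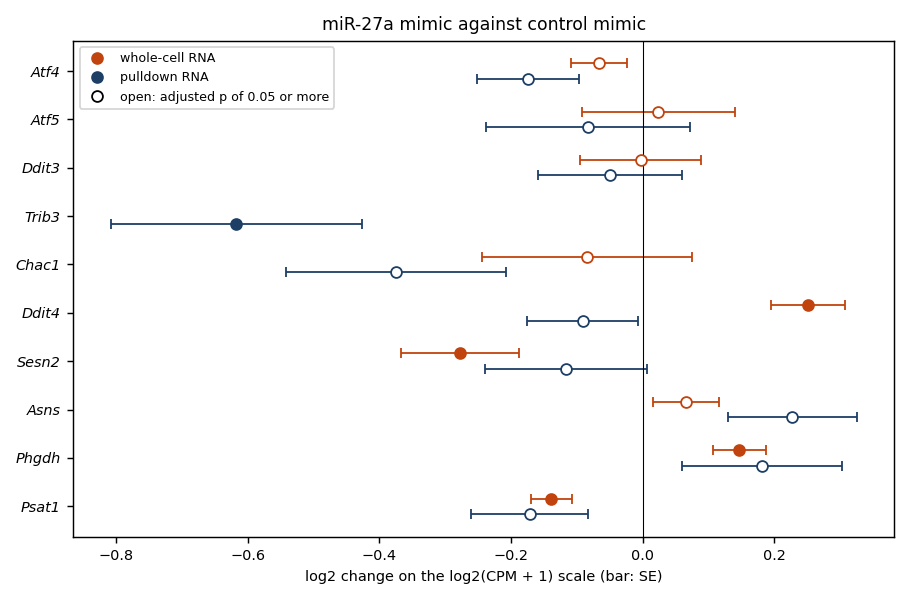
Log2 change of each gene under miR-27a against control mimic (horizontal axis, log2(CPM + 1) scale) in whole-cell and pulldown RNA; points are estimates over 3 against 3 libraries, bars are SE, and open points have an adjusted p of 0.05 or more. Ddit4 and Phgdh lie right of 0 and Psat1 and Sesn2 left of it in whole-cell RNA, and Trib3 at -0.62 is the filled point in pulldown RNA; Trib3 has no whole-cell point because it was under the filter.

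The comparison of pulldown with whole-cell RNA under control mimic asked which RNAs differ between the fractions without added miR-27a. Atf4, Trib3, Chac1 and Ddit4 were higher in pulldown RNA and Phgdh, Psat1 and Asns were lower. These are 7 of the 10 genes, beside 62.0% of the 13875 genes tested in the fit of 12 libraries, a share near the background. Trib3 differed by 0.96 ± 0.19 (SE, adjusted p = 0.000242), Atf4 by 0.48 ± 0.06 (adjusted p = 1.03e-06) and Chac1 by 0.46 ± 0.16 (adjusted p = 0.0169) in limma. Phgdh differed by -0.86 ± 0.10 (adjusted p = 1.08e-06), its 6 control libraries falling into separate ranges of 169.9 to 189 CPM in whole-cell and 97.0 to 101 CPM in pulldown RNA. Psat1 differed by -0.37 ± 0.07 (adjusted p = 8.61e-05 in limma).

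Ddit4 and Asns were the smallest of these differences, at 0.21 ± 0.08 (adjusted p = 0.0247) and -0.22 ± 0.08 (adjusted p = 0.018) in limma. Several libraries decided them. Ddit4 was lost without whole-cell control replicate 1 (0.118) or 3 (0.0879) or pulldown control replicate 1 (0.0753) or 3 (0.0734). Asns was lost without whole-cell control replicate 1 (0.0759) or pulldown control replicate 3 (0.0983), and when scaled by library totals (0.14). Chac1 was lost without whole-cell control replicate 2 (0.0623) or pulldown control replicate 3 (0.0718). Sesn2 differed by 0.24 ± 0.11 (adjusted p = 0.0681), Atf5 by -0.24 ± 0.13 (adjusted p = 0.122) and Ddit3 by -0.09 ± 0.10 (adjusted p = 0.413), none passing in limma. Sesn2 passed with library totals (0.017), without pulldown control replicate 1 (0.0309) and without pulldown miR-27a replicate 2 (0.041), which enters through the shared spread.

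Under miR-27a mimic, Atf4 and Sesn2 were higher in pulldown RNA and Phgdh, Psat1 and Atf5 were lower. That is 5 of the 10 genes, beside 60.2% of the 13875 genes tested. It was 4 without pulldown miR-27a replicate 2, where Atf5 no longer passed. Atf4 differed by 0.37 ± 0.06 (SE, adjusted p = 2.2e-05), Sesn2 by 0.40 ± 0.11 (adjusted p = 0.00418) and Phgdh by -0.82 ± 0.10 (adjusted p = 1.89e-06) in limma. Psat1 differed by -0.40 ± 0.07 (adjusted p = 3.8e-05), and Atf5 by -0.35 ± 0.13 (adjusted p = 0.0301). Atf5 no longer passed without whole-cell miR-27a replicate 1 (0.0633) or 2 (0.101), without pulldown miR-27a replicate 1 (0.0613) or 2 (0.12), with no filter (0.0675) and with library totals (0.0982). Trib3, at 0.22 ± 0.19 (adjusted p = 0.317), and Chac1, at 0.17 ± 0.16 (adjusted p = 0.358), did not pass in limma. Neither did Ddit4, at -0.14 ± 0.08 (adjusted p = 0.13), Asns, at -0.06 ± 0.08 (adjusted p = 0.507), nor Ddit3, at -0.14 ± 0.10 (adjusted p = 0.221).

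Genes of the sex chromosomes also differed between the fractions. Xist was at 95.0 to 119 CPM in whole-cell and 315 to 407 CPM in pulldown libraries, and 4 Y-linked genes were 2.79 to 4.51-fold lower in pulldown RNA by their means. The sources used here do not say whether both fractions came from the same cultures, and the part of this in the pulldown against whole-cell differences was not tested.

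**Figure D3:**
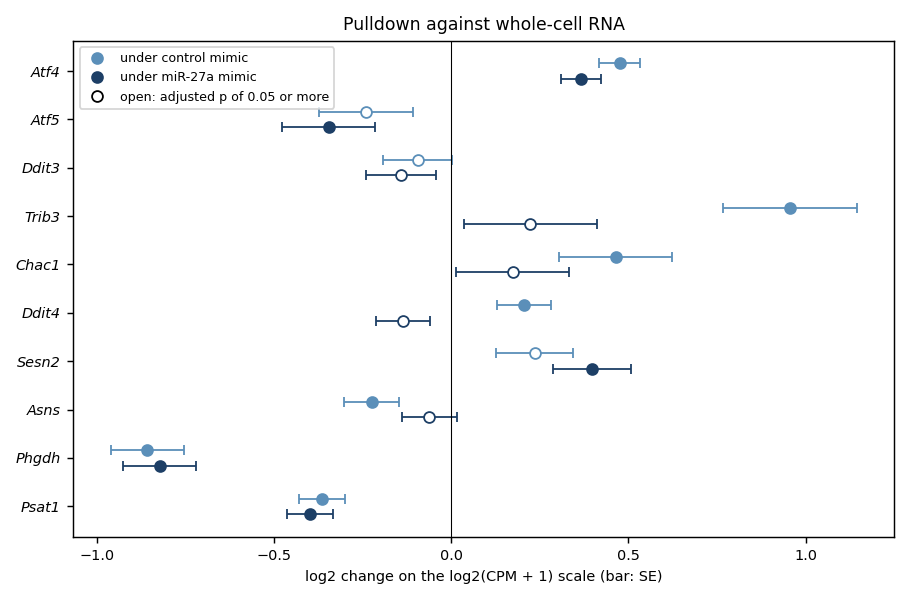
Log2 difference of each gene between pulldown and whole-cell RNA (horizontal axis, log2(CPM + 1) scale) under each mimic; points are estimates from the fit of 12 libraries, bars are SE, and open points have an adjusted p of 0.05 or more. Atf4 lies right of 0 and Phgdh and Psat1 left of 0 under both mimics, while Trib3 lies at 0.96 under control mimic and 0.22 under miR-27a.

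The interaction of mimic and fraction tests whether a gene's enrichment in the pulldown differs between mimics. Reading it as RNA held by miR-27a beyond its whole-cell change needs both fractions to come from the same cultures. The sources used here do not say that they did. None of the 10 genes passed in limma, beside 1.07% of the 13875 genes tested, and none passed with limma voom on the recovered reads. At an unadjusted p under 0.05 there were 2 of the 10 genes, Ddit4 and Trib3, beside 13.0% of the 13875, a share near the background. Ddit4 differed by -0.34 ± 0.11 (SE, unadjusted p = 0.00498, adjusted p = 0.148) and Trib3 by -0.73 ± 0.27 (unadjusted p = 0.013, adjusted p = 0.219) in limma. For the other 8 genes the difference ran from -0.29 for Chac1 to 0.16 for Asns and Sesn2, with adjusted p-values of 0.576 to 0.953 in limma. Sesn2, the gene with an 8mer, differed by 0.16 (adjusted p = 0.71), and Psat1, with 2 sites, by -0.03 (adjusted p = 0.926).

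Around these genes, other parts of the response were read by counts of their tested members, beside 24.9% of all genes called in whole-cell and 13.1% in pulldown RNA. Of 16 genes for eIF2 kinases, eIF2, its exchange factor eIF2B and its phosphatase, 0 rose and 3 fell in whole-cell RNA, with a median change of 0.02. These were Impact, an inhibitor of the amino acid sensing kinase GCN2 (-0.38 ± 0.04, adjusted p = 2.6e-07), Eif2ak2, the kinase PKR that senses double-stranded RNA (-0.28 ± 0.05, adjusted p = 0.000282), and Eif2s2, the beta subunit of eIF2 (-0.18 ± 0.04, adjusted p = 0.00295), all by limma. In pulldown RNA Impact fell (-0.39 ± 0.10, adjusted p = 0.0166) and no other of the 16 passed. Of 9 other stress transcription factors and cofactors of the bZIP kind, 0 passed in whole-cell RNA (median 0.00). In pulldown RNA 1 fell, Cebpb, a C/EBP factor that pairs with ATF4 (-0.89 ± 0.14, adjusted p = 0.000713 in limma).

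Among amino acid transporters of the ATF4 programme, Slc7a11 stood far below the rest. Of 11 tested, 2 rose and 3 fell in whole-cell RNA, with a median of -0.13. Slc7a11, the cystine importer and a target shared by ATF4 and NRF2, was at 173, 157 and 164 CPM under control mimic and 58.8, 62.4 and 56.5 CPM under miR-27a, a change of -1.46 ± 0.05 (adjusted p = 2.99e-16 in limma). Its partner chain Slc3a2 fell by 0.25 ± 0.04 (adjusted p = 3.59e-05) and the serine and alanine carrier Slc1a4 fell by 0.31 ± 0.04 (adjusted p = 7.3e-06) in limma. Slc38a2, the neutral amino acid carrier SNAT2, rose by 0.34 ± 0.04 (adjusted p = 1.79e-07 in limma). In pulldown RNA 3 of the 11 rose and 2 fell, with Slc7a11 at -1.37 ± 0.09 (adjusted p = 3.47e-07), Slc38a2 at 0.56 ± 0.08 (adjusted p = 0.000212) and Slc38a1 at 0.49 ± 0.09 (adjusted p = 0.00281) in limma. Thus the transporter list, like the 10 genes, held changes in both directions.

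Of 13 genes for cytosolic tRNA synthetases and tRNA export, which ATF4 raises in amino acid shortage, 0 passed in either fraction, with medians of 0.02 in whole-cell and 0.07 in pulldown RNA. Of 12 tested among 15 other listed ATF4 targets, 2 rose and 2 fell in whole-cell RNA, with a median of 0.04. Gpt2, an alanine transaminase, fell by 0.25 ± 0.03 (adjusted p = 4.0e-06), and Cth, which makes cysteine from cystathionine, fell by 0.51 ± 0.15 (adjusted p = 0.0185) in limma. Sqstm1, the autophagy receptor p62, rose by 0.17 ± 0.04 (adjusted p = 0.00239), and the branched-chain transaminase Bcat1 rose by 0.11 ± 0.04 (adjusted p = 0.0339). In pulldown RNA 1 of the 12 fell, the proline synthesis enzyme Pycr1 (-0.60 ± 0.18, adjusted p = 0.0412 in limma).

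Beyond Phgdh and Psat1, 21 genes for serine, glycine and one-carbon metabolism were tested, of which 6 rose and 4 fell in whole-cell RNA (median 0.02). The smallest p was that of Aldh1l1, a folate enzyme that is also an astrocyte marker, which fell from 935 ± 40.8 to 602 ± 18.3 CPM (SD, n = 3), a log2 change of -0.63 ± 0.04 (adjusted p = 5.53e-12 in limma). Its mitochondrial relative Aldh1l2 fell by 0.21 ± 0.04 (adjusted p = 0.000219). Within the glycine cleavage system, Gcsh fell by 0.22 ± 0.04 (adjusted p = 0.000209) while Amt rose by 0.28 ± 0.05 (adjusted p = 0.000261). In pulldown RNA 5 of the 21 rose and 2 fell (median 0.10), led by falls of Aldh1l1 (-0.90 ± 0.12, adjusted p = 0.000124) and Cbs (-0.90 ± 0.14, adjusted p = 0.000402), which makes cystathionine from serine, and a rise of Amt (0.38 ± 0.09, adjusted p = 0.00727).

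On the parallel ATF6 and XBP1 branches of the unfolded protein response, 1 of 20 genes rose and 8 fell in whole-cell RNA, with a median of -0.04. The falls were small and included the chaperone Hspa5 (-0.13 ± 0.03, adjusted p = 0.00161), the lectin Calr (-0.19 ± 0.04, adjusted p = 0.0018) and Dnajc3, a co-chaperone of Hspa5 (-0.29 ± 0.04, adjusted p = 1.1e-05), in limma. Atf6b, a relative of ATF6, rose by 0.30 ± 0.08 (adjusted p = 0.0124), and in pulldown RNA 0 of the 20 passed. Among 17 genes of mTORC1 and amino acid sensing, where DDIT4 and SESN2 act, 2 fell and 0 rose in each fraction. The falls were Rragd, a Rag GTPase that brings mTORC1 to the lysosome (-0.62 ± 0.05, adjusted p = 1.58e-09 in whole-cell and -0.60 ± 0.09, adjusted p = 0.000347 in pulldown RNA), and Rheb, the GTPase that activates it (-0.21 ± 0.05, adjusted p = 0.00147, and -0.33 ± 0.09, adjusted p = 0.0193). In each fraction the named falls were tested with limma.

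**Figure D4:**
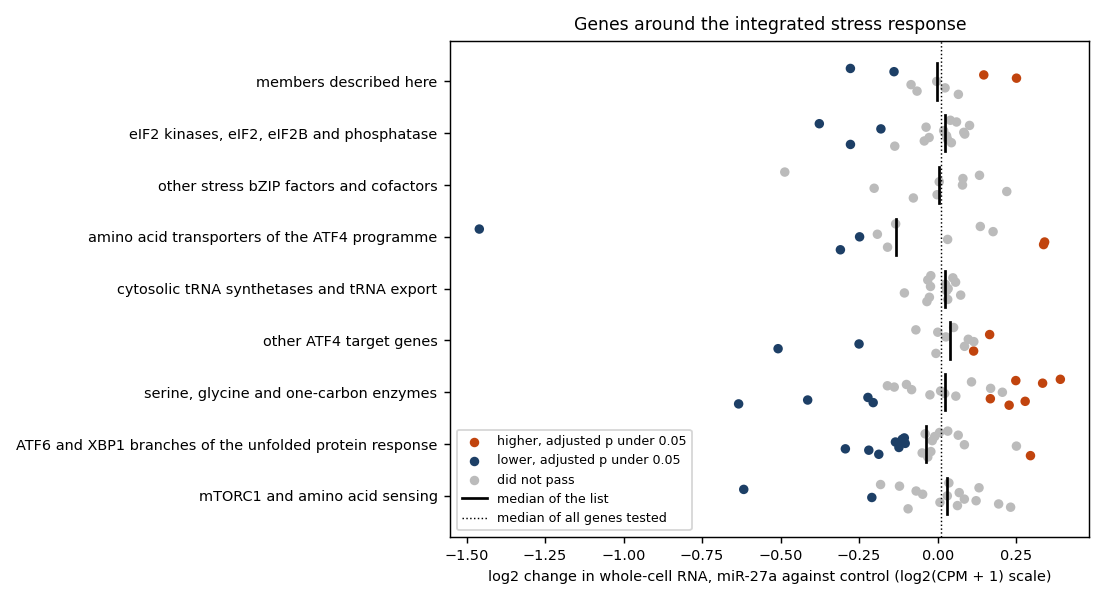
Log2 change in whole-cell RNA under miR-27a against control mimic (horizontal axis, log2(CPM + 1) scale) for the tested genes of each list; a point is a gene, coloured by whether it passed (adjusted p under 0.05) and in which direction, the bar is the list's median and the dotted line the median of all genes tested. List medians run from -0.13 for the transporters to 0.04 for other ATF4 targets, with Slc7a11 at -1.46 the farthest point.

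Promoters were searched for the core of the C/EBP-ATF response element, the letters TGATGNAA on either strand, from 250 bases before to 50 after each start (RefSeq, GRCm38.p6). All 10 genes had a promoter in the table, Atf5 and Psat1 with 2 each. The core was found in 3 genes, Chac1, Trib3 and Asns, against 3.02% of the 13295 genes of the deposited table with a promoter. The stricter TGATGCAA was found in Chac1 alone of the 10, against 0.767% of those genes. The matches are shown within 30 bases of each promoter, in capitals, because they mark which of the genes carry ATF4's known binding letters near the start.
Chac1 (chr2:119351038-119351067, plus strand, 193 bases before the start): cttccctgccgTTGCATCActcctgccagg
Trib3 (chr2:152344028-152344057, minus strand, 14 bases past the start): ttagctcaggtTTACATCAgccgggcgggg
Asns (chr6:7693214-7693243, minus strand, 23 bases before the start): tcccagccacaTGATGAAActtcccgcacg

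Of the genes with these letters, Trib3 fell under miR-27a in pulldown RNA, while Chac1 (-0.37) and Asns (0.23) did not pass there. Elements outside this window were not searched. Over the 12 libraries the log2(CPM + 1) levels of Trib3 and Chac1 had a Pearson r of 0.81, those of Psat1 and Phgdh 0.829, and those of Atf4 and Phgdh -0.923. Libraries of a fraction share that fraction's composition, so these values describe the libraries and carry no p.

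Genes whose levels were most like each member over the 12 libraries, by Pearson r of log2(CPM + 1), were Tmem44 (0.983) and Rhbdl3 (0.981) for Atf4, and Prpf31 (0.992) and Uck1 (0.99) for Phgdh. For Psat1 they were Myl12b (0.99) and Chmp2a (0.989), for Sesn2 Ksr1 (0.96) and Elfn1 (0.926), and for Asns Rps27l (0.953) and 1700037H04Rik (0.913). For Atf5 they were Tubgcp2 (0.958) and Zfp259 (0.952), for Ddit4 Id3 (0.931) and Phrf1 (0.9), and for Chac1 Slc37a2 (0.939) and Acad10 (0.911). Trib3 was most like Exog (0.917) and Itpkc (0.907), and Ddit3 was most like Gm2830 (0.821) and Glis3 (0.805), the lowest likeness of the 10. None of these genes was another of the 10.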

How the data were processed

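RNA-seq libraries were made with a stranded total RNA kit after ribosomal and globin depletion and sequenced as paired ends, per the series' design text. Reads were trimmed with skewer, aligned with HISAT2 to GRCm38, sorted with SAMtools, counted with featureCounts and normalised with edgeR by the authors, per the same text, which gives no versions. The authors deposited log2 CPM. CPM and whole reads were recovered from it, 100% of values being whole within 0.01 reads. From there, log2(CPM + 1) was tested with limma 3.58.1 (R 4.3.3), two-sided, trended, with Benjamini-Hochberg adjustment over all genes with at least 1 CPM in 3 libraries of the fit. Mimics were compared in 6 libraries, and pulldown against whole-cell RNA and the interaction in 12.

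Same-numbered pulldown libraries deviated together (r of 0.107 to 0.275), which is read from the data, and whole-cell libraries did not (-0.034 to 0.001). Pulldown replicates 1 and 3 of opposite mimics also had positive r (0.049 and 0.062). Between fractions, same-numbered libraries had r of 0.015 to 0.161 under miR-27a and -0.097 to 0.012 under control mimic. No libraries were duplicates (chi-square per degree of freedom 1.86 to 29.9). Alternatives changed the pseudocount (0.5, or values as deposited), filter, scaling, test (limma voom), samples fitted, block and replicates.

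The 10 genes and the 13 other lists were chosen with earlier results of these data known. Beside the 10, the text names up to 4 genes per pathway list with the smallest p past the threshold in whole-cell RNA, up to 3 in pulldown RNA, and the 2 most alike genes per member. Crebrf, Castor1, Castor2 and Map2 were matched by older symbols, and Batf2 and Nars1 were not matched (Nars was). Tables and plots used Python 3.11.15 with pandas 2.3.3, numpy 2.4.6, scipy 1.17.1 and matplotlib 3.10.9.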

Additional observations from a re-analysis of the deposited data

How the results depend on the processing

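Of 875 results for single members under an alternative, 824 kept their direction and side of the threshold, 30 no longer passed, 8 newly passed and 13 changed sign, none of these passing before or after. With library totals the log2 change of Ddit3 in whole-cell RNA was 0.00674 and that of Asns between fractions under miR-27a 0.0412. Without 1 replicate, the whole-cell changes ran from -0.0726 to 0.0839 for Atf5, -0.0955 to 0.093 for Ddit3 and -0.262 to 0.0144 for Chac1. Ddit3 between fractions under control mimic ran from -0.187 to 0.0011, and the interaction from -0.143 to 0.0459 for Ddit3, -0.104 to 0.0357 for Psat1 and -0.0897 to 0.217 for Phgdh. In whole-cell RNA the count of 4 members became 1 (Ddit4) with all 12 libraries in 1 fit, where Sesn2 (adjusted p = 0.123), Psat1 (0.209) and Phgdh (0.444) no longer passed, and was 2 to 4 when 1 replicate was left out. In pulldown RNA the count of 1 became 0 with no filter, 0 with a filter of 5 CPM, 3 with all 12 libraries (Asns, Atf4 and Trib3) and 2 with the replicate block, and 0 to 2 without 1 replicate; the block changed no other call on a member. Pulldown against whole-cell counts were 4 to 8 (control mimic) and 4 to 5 (miR-27a) without 1 replicate. The interaction count was 0 under every alternative tried. The calls for Ddit4 in whole-cell RNA and for Atf4, Psat1 and Phgdh between fractions held under every alternative tried. Those between fractions for Trib3 under control mimic and Sesn2 under miR-27a also held in every alternative in which the gene was tested. Over all genes, mimic calls fell from 3335 to 1415 in whole-cell RNA and rose from 1781 to 3051 in pulldown RNA with all 12 libraries in 1 fit; pulldown calls were 2743 with the replicate block and 969 to 2691 without 1 replicate. The causes were not tested. The stricter promoter core left 1 gene of 3, and 8mers alone left 1 gene of 5. Depth limits Trib3 and Chac1 most, with under 100 reads in each library.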
